A study of Mus musculus with 6 samples.

Results

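The core circadian clock genes measured here were 10 members named by symbol, namely Clock, Per1, Per2, Per3, Cry1, Cry2, Nr1d1, Nr1d2, Dbp and Tef. Each symbol was found once in the deposited TPM values (a level relative to the length of the transcript and to all RNA of a library), and was joined by gene identifier to the raw counts. These are 10 of 45777 genes in the count table and of 16800 genes with a TPM value, and all 10 passed the filter on low counts that left 16188 tested genes.

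RNA came from the tibialis anterior (TA) muscle of male C57BL/6J mice, labelled as 24 months old. The vehicle group (3 libraries) received DMSO and Tween 80 without compound, and the BML-260 group (3 libraries) received 5 mg/kg BML-260, a small molecule that the study used against the phosphatase DUSP22. Both groups were injected intraperitoneally once a day for 1 month, which makes all 6 libraries old muscle after repeated injection. The methods give 3 mice per group and a wider range of ages than the labels. The mice lived on a light/dark cycle, and the hour at which each TA muscle was taken is not given in the sources used here. Each library therefore gives a single reading of the clock, and no phase in hours can be set.

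The circadian clock is a loop of transcription factors that runs in nearly every cell, skeletal muscle fibers included. CLOCK pairs with BMAL1 (the product of Arntl) and switches on Per, Cry, Nr1d, Dbp and Tef genes through short DNA sites called E-boxes, and the PER and CRY proteins then shut CLOCK-BMAL1 off. The proteins of Nr1d1 and Nr1d2 (REV-ERB alpha and beta) repress Arntl, Clock and Cry1 through RORE sites, which ROR proteins activate, while DBP, TEF and HLF act on D-box sites against NFIL3. Because of this wiring, Dbp, Nr1d1 and Per transcripts peak when Arntl, Npas2 and Clock are low, and the balance between both arms marks where a tissue stood in its daily cycle. In muscle, the loop also sets daily rhythms of fuel use.

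The libraries held between 39522890 and 56998875 counts. Vehicle replicate 3 stood apart from the other 5 libraries in ways that are not limited to clock genes, and the values that touch the results below are these. Its summed TPM of 6 macrophage markers was 477 against 70.3 to 114 in the other libraries. For 3 Schwann cell markers it was 37.6 against 5.67 to 10.9, and for 4 hemoglobin and erythroid genes 7411 against 1411 to 1853. For 4 adipocyte markers it was 496 against 293 to 380, with 469 from Fabp4. In normalized counts (counts divided by the size factor of the library) Fabp4 was at 6531, inside the range of the other libraries (5610 to 7613). Adipoq, Plin1 and Cidec were 8.38-, 7.12- and 8.12-fold above the mean of the other vehicle libraries in normalized counts. The 3 neutrophil markers with a TPM value summed to 799 in vehicle replicate 3, 164 and 23.6 in vehicle replicates 1 and 2, and 6.67 to 11.9 in the BML-260 libraries. All 8 skeletal muscle fiber markers were abundant in every library, with a summed TPM of 89081 in vehicle replicate 3, the lowest, and of 101027 to 126892 elsewhere. That sum joins markers that went opposite ways in vehicle replicate 3. Pvalb was at 2511 TPM there against 8214 to 12193 elsewhere, and Tnnt3 was at 23582 TPM against 17308 to 20888. In normalized counts vehicle replicate 3 was the lowest library for 7 of the 8, Pvalb and Tnnt3 included. Vehicle replicate 3 was the highest or lowest of the 6 libraries for 63.4% of all tested genes. The part of these differences in the clock values was not tested, and in whole muscle fewer cells of a type and less RNA per cell cannot be told apart.

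In TPM, which can be compared between genes, the members spanned an order of magnitude. Tef, a D-box activator, had the highest level with a mean of 92.6 TPM ± 13.2 (SD, n = 6), followed by Nr1d2 with 82.8 ± 10.3 and Dbp with 38.5 ± 19.7. Cry2, a repressor of CLOCK-BMAL1, had 22.7 TPM ± 14.7, Per1, another part of the repressor complex, 19.2 ± 10.3, and Nr1d1 17.3 ± 4.70. Clock had 9.75 TPM ± 4.12, Per3 9.03 ± 1.98, Cry1 7.13 ± 1.37 and Per2 6.50 ± 1.54. Of the 9 pairs of neighbours in this order, Nr1d2 and Dbp were separated by more than their spread, with every Nr1d2 level (75.3 to 103 TPM) above every Dbp level (6.96 to 59.9 TPM). The ranges of the other 8 pairs overlapped. Within libraries, Tef exceeded Nr1d2 in 5 of 6, Dbp exceeded Cry2 in 5 of 6 and Cry2 exceeded Per1 in 6 of 6, whereas Per1 exceeded Nr1d1 in 2 of 6 and Clock exceeded Per3 in 2 of 6.

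**Figure D1:**
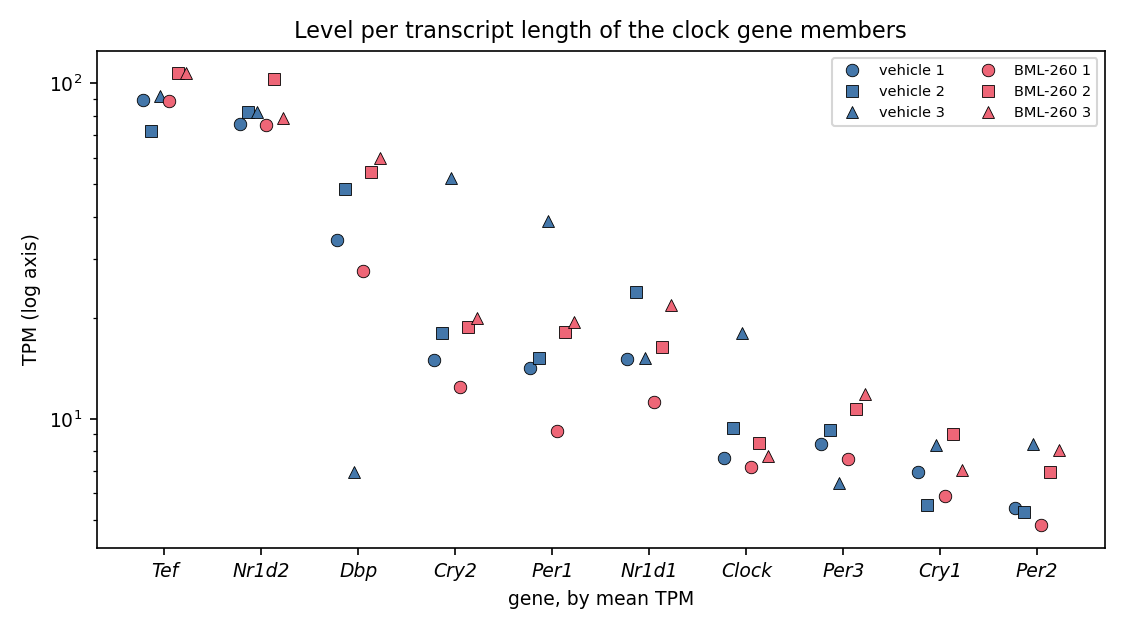
TPM (log axis) of the 10 members in each of the 6 libraries, ordered by mean TPM, with vehicle in blue, BML-260 in red and 1 symbol per replicate number. Vehicle replicate 3 (blue triangle) lies far below the others for Dbp (6.96 TPM) and above them for Cry2 (52.1 TPM), Per1 (38.9 TPM) and Clock (18.0 TPM).

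Promoter sequences were taken from RefSeq (GRCm38.p6, the assembly that mm10 names), as windows from 250 bases before to 50 after a transcription start. Windows were found for 9 of the 10 members. They were searched on both strands for the E-box CACGTG, its variant CACGTT, the D-box TTATGTAA and its variant TTACGTAA, the RORE letters TAGGTCA and TGGGTCA, and the cyclic AMP response element TGACGTCA. None of these sites overlapped another in a window of a member. The E-box was in a window of 3 of the 9 members (Per1, Cry1 and Tef) and in 7.15% of all 32851 windows. Members were counted by gene and the percentages by window. Clock, Per1 and Tef had more than 1 window each, so the counts and percentages are unlike measures. The CACGTT variant was in a window of Cry1, Cry2 and Nr1d1 (4.68% of all windows), and the D-box was in that of Per3 (0.938% of all windows), where it occurred at 2 places. The D-box variant (0.119%), both RORE spellings (2.61% and 3.98%) and the cyclic AMP response element (1.79%) were in no window of a member. Among 8 of the 9 other loop genes with a window, TAGGTCA was in those of Arntl and Nfil3, the E-box in those of Ciart and Bhlhe41, CACGTT in that of Rorb, and TGACGTCA in that of Hlf. The 250 bases before the start are shown 5′ to 3′ along the gene for the 6 members with a match, to show where the letters by which the loop feeds back on itself lie, with the matches in capitals. They are E-box letters in Per1, Cry1 and Tef, the variant as it reads on the other strand in Cry1, Cry2 and Nr1d1, and D-box letters in Per3.
Per1 (chr11:69098699-69098948, plus strand): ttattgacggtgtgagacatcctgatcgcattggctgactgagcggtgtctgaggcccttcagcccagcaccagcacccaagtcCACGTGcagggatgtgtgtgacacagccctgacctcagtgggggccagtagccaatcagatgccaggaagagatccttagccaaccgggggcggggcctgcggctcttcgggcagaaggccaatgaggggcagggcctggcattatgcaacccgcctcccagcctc
Per3 (chr4:151044666-151044915, minus strand): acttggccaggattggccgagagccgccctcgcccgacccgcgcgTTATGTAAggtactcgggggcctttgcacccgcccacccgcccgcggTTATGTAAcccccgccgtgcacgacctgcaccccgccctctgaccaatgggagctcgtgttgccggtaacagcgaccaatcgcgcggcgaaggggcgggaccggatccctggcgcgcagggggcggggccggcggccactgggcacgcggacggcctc
Cry1 (chr10:85185055-85185304, minus strand): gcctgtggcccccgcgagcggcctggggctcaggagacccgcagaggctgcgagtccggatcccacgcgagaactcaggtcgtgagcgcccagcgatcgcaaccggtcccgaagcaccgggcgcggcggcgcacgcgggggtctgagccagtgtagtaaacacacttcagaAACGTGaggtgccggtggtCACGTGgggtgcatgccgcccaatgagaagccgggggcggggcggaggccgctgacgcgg
Cry2 (chr2:92434070-92434319, minus strand): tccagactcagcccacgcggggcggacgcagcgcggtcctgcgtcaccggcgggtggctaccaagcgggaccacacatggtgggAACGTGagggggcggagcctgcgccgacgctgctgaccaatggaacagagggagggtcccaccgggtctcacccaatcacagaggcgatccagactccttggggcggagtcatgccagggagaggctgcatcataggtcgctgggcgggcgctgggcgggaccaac
Nr1d1 (chr11:98775378-98775627, minus strand): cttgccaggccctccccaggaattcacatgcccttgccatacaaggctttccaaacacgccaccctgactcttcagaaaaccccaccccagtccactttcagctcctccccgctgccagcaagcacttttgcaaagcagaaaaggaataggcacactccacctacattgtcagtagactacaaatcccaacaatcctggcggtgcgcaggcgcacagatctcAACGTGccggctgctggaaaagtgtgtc
Tef (chr15:81811164-81811413, plus strand): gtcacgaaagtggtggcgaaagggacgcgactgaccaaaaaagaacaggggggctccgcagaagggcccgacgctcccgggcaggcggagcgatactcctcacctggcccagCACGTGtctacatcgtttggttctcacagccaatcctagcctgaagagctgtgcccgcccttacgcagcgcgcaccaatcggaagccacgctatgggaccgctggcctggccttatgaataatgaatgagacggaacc

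A match is a description of the sequence and not a bound site, and no match says only that these letters are not in the window. For Tef, the window shown belongs to the inner of 2 starts, while that of the outer start, which also holds an E-box, is not shown, and that of Per1 belongs to the first of 2 starts in the table.

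The state of the clock in each library was read first. Values are normalized counts, that is counts divided by the size factor of the library, unless TPM is named, and replicates are given in the order 1, 2, 3.

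Dbp, a D-box activator known for a wide daily swing, had 1594, 2407 and 235 normalized counts in the vehicle libraries and 1413, 2456 and 2773 in the BML-260 libraries. Vehicle replicate 3 was the lowest by far, with 8.51-fold fewer counts than the mean of the other vehicle libraries, and the other 5 libraries overlapped between groups. The range of Dbp over all 6 libraries was 11.8-fold, a range exceeded by 4.15% of tested genes, and it was 1.96-fold over the other 5 libraries, exceeded by 25.0%. The median tested gene had a range of 1.75-fold over 6 libraries and of 1.45-fold over 5.

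Arntl, which encodes the partner of CLOCK and is no member, had 491, 443 and 1078 normalized counts with vehicle and 511, 276 and 437 with BML-260. It was highest in the library where Dbp was lowest, and lowest in BML-260 replicate 2. The log2 ratio of Dbp to Arntl was 1.70, 2.44 and -2.20 in vehicle replicates 1, 2 and 3, and 1.47, 3.15 and 2.66 in BML-260 replicates 1, 2 and 3. In TPM, Arntl (16.2) exceeded Dbp (6.96) in vehicle replicate 3, whereas Dbp exceeded Arntl in each of the other 5 libraries.

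**Figure D2:**
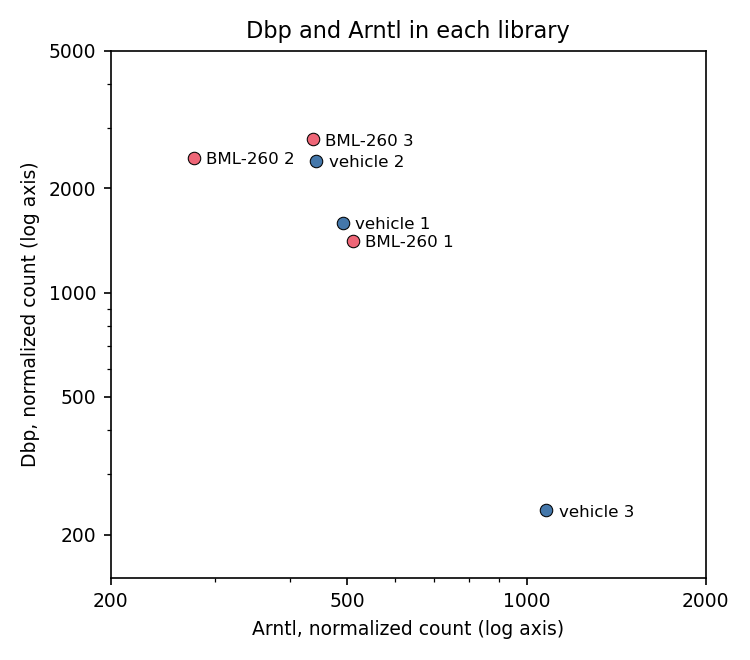
Normalized counts of Dbp against those of Arntl in each library (both axes logarithmic), with vehicle in blue and BML-260 in red. Vehicle replicate 3 (Arntl 1078, Dbp 235) lies alone at the lower right, while the other vehicle libraries lie among the BML-260 libraries.

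The remaining members did not split in vehicle replicate 3 as a single block. Vehicle replicate 3 was the lowest of the 6 libraries for 5 members (Per3, Nr1d1, Nr1d2, Dbp and Tef) and the highest for 3 (Per1, Cry2 and Clock). Over all tested genes it was the lowest for 31.1% and the highest for 32.3%. On the TPM scale it was the lowest of the 6 for Per3 and Dbp. It was not the lowest for Nr1d1 (15.2 TPM against 11.2 to 23.8), Nr1d2 (82.0 TPM against 75.3 to 103) or Tef (91.4 TPM against 72.0 to 107). It was the highest in TPM for Per1, Cry2 and Clock, and also for Per2 (8.41 TPM against 4.82 to 8.10). Its place for Nr1d1, Nr1d2, Tef and Per2 therefore depends on the scale.

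Per1, a repressor that is also induced quickly by glucocorticoids and other stimuli, had 2161, 2480 and 4204 normalized counts with vehicle and 1587, 2633 and 3176 with BML-260. Per3, its relative, had 1420, 1610 and 763 with vehicle and 1399, 1757 and 1920 with BML-260. The library highest for Per1 was therefore the lowest for Per3, and the log2 ratio of Per1 to Per3 was 2.46 in vehicle replicate 3 against 0.18 to 0.73 in the other 5 libraries. Per2 had 894, 919 and 1005 normalized counts with vehicle and 875, 1124 and 1308 with BML-260, and vehicle replicate 3 lay below BML-260 replicates 2 and 3 and above the rest.

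Cry2 had 1685, 2090 and 4222 normalized counts with vehicle and 1529, 2050 and 2184 with BML-260. Vehicle replicate 3 held 2.24-fold more Cry2 than the mean of the other vehicle libraries, and the other 5 libraries lay within 1.43-fold of each other. Cry1, the other cryptochrome, had 595, 498 and 520 normalized counts with vehicle and 555, 754 and 589 with BML-260, with vehicle replicate 3 inside the range of the rest. Clock had 2190, 2787 and 3611 with vehicle and 2269, 2362 and 2143 with BML-260. The BML-260 libraries lay close together for Clock, and vehicle replicate 1 was among them.

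Nr1d1, a repressor of Arntl, had 1182, 1953 and 860 normalized counts with vehicle and 965, 1247 and 1670 with BML-260. Nr1d2, which shares this role, had 9960, 11281 and 7771 with vehicle and 10868, 13153 and 10072 with BML-260. Both genes overlapped between groups, and Nr1d1 was highest in vehicle replicate 2. Tef had 11073, 9154 and 8188 normalized counts with vehicle and 11812, 12662 and 12710 with BML-260, and it was the only member whose groups did not overlap. Groups did not overlap for 12.1% of all tested genes, so 1 member of 10 is near the background. In TPM the Tef groups did overlap, since vehicle replicates 1 (89.5 TPM) and 3 (91.4 TPM) both exceeded BML-260 replicate 1 (88.4 TPM).

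**Figure D3:**
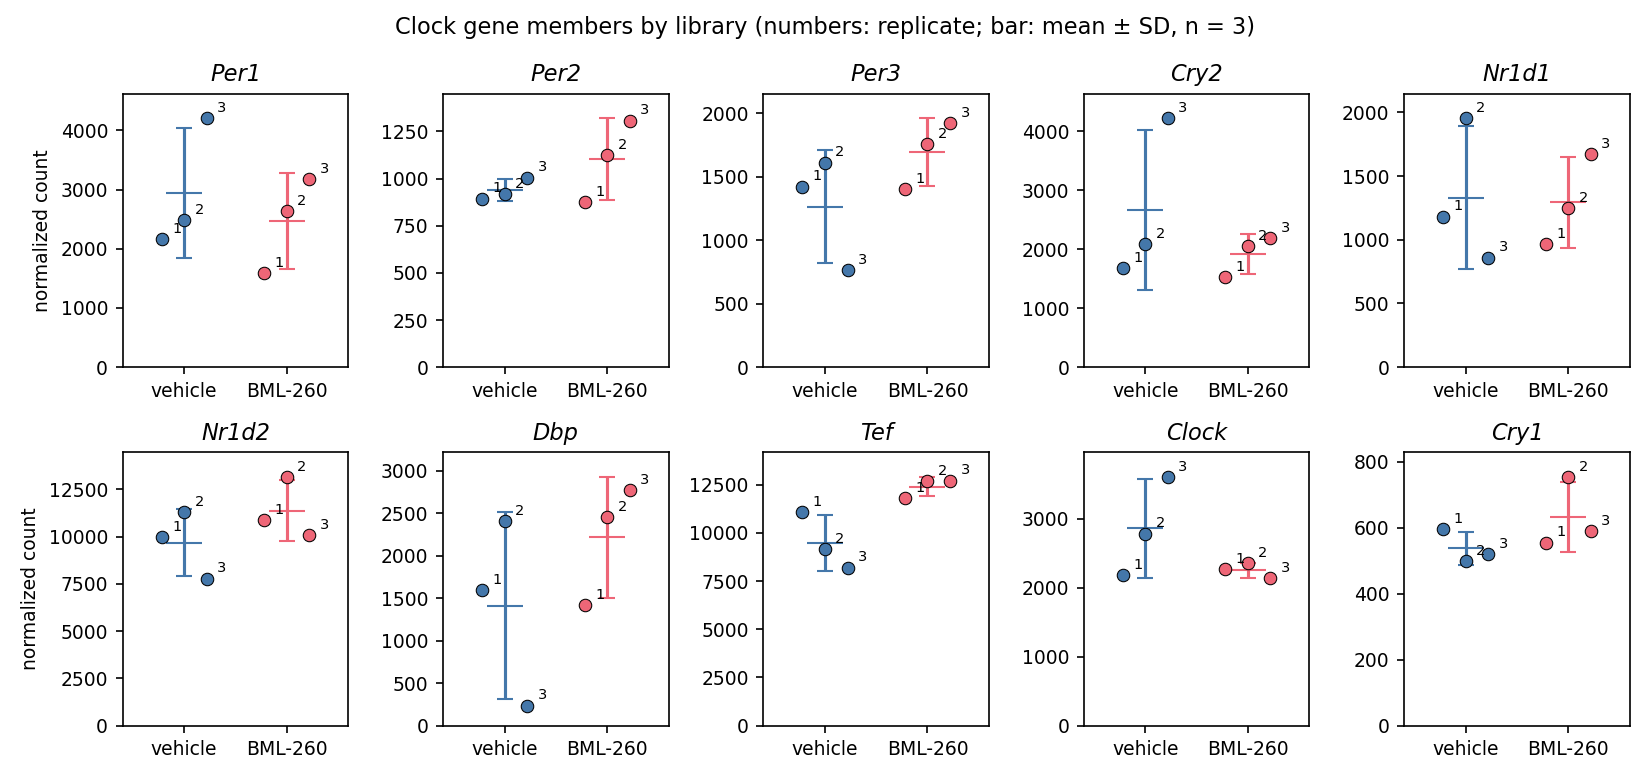
Normalized counts of the 10 members in the 3 vehicle (blue) and 3 BML-260 (red) libraries, with replicate numbers beside the points and bars for mean ± SD (n = 3). Vehicle replicate 3 is the lowest vehicle point for Dbp (235) and Per3 (763) and the highest for Per1 (4204), Cry2 (4222) and Clock (3611), and Tef is the panel without overlap between groups.

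A second ordering ran through both groups and did not involve vehicle replicate 3. Among the other 5 libraries, BML-260 replicate 1 was the lowest and vehicle replicate 1 the second lowest for 6 members, namely Per1, Per2, Per3, Cry2, Nr1d1 and Dbp. That order held for 5.71% of all tested genes. For 4 of the 6 (Per1, Per2, Per3 and Dbp) the whole order was the same, from BML-260 replicate 3 through BML-260 replicate 2, vehicle replicate 2 and vehicle replicate 1 to BML-260 replicate 1, an order found in 0.840% of tested genes. Ciart, an E-box gene that represses CLOCK-BMAL1 and is no member, had 112 and 69.1 normalized counts in replicate 1 of vehicle and BML-260, against 355, 316 and 354 in vehicle replicate 2 and BML-260 replicates 2 and 3. Of the other loop genes, Rora and Bhlhe40 also had this pair of libraries lowest in the same order. Arntl ran the other way, with its highest 2 values of these 5 in the same pair, like 13.9% of tested genes. No member, Clock included, and none of the remaining loop genes, Npas2 included, had that pair highest. The order of these 5 libraries was chosen for description after the values were seen. It separates libraries within each treatment group rather than the groups.

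**Figure D4:**
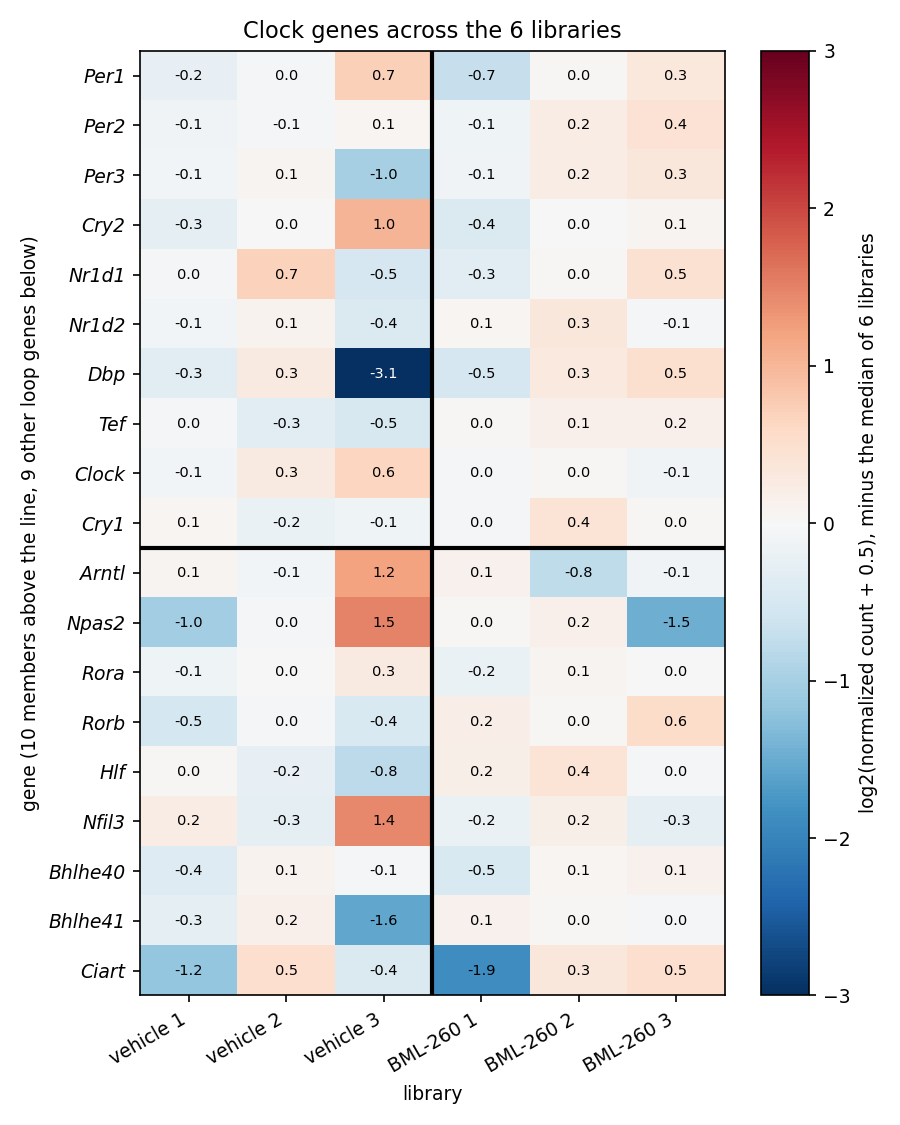
Log2 of the normalized count plus 0.5, minus the median of the 6 libraries, for the 10 members (above the horizontal line) and 9 other loop genes (below), with red above and blue below the median of the gene. The column of vehicle replicate 3 holds the deepest blue (Dbp) and strong reds for Arntl, Npas2 and Nfil3, and replicate 1 of both groups shares the blue of Ciart.

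The index that sums this up was the mean log2 CPM (counts per library scaled to a common total) of the 8 members in the PER-DBP arm (Per1, Per2, Per3, Cry2, Nr1d1, Nr1d2, Dbp and Tef) minus that of the 2 members in the CLOCK arm (Clock and Cry1), taken within each library. It was 1.05, 1.25 and 0.48 for vehicle and 0.96, 1.13 and 1.50 for BML-260. The group means were 0.92 ± 0.40 (SD, n = 3) and 1.20 ± 0.27 (SD, n = 3), and they differed by 0.27 with overlapping values. Without vehicle replicate 3 the vehicle mean was 1.15 and the difference was 0.051. The difference also shrank to 0.12 without BML-260 replicate 3 and grew to 0.44 without vehicle replicate 2. With both cryptochromes left out of the index, vehicle replicate 3 was at -1.08 and the other 5 libraries were between 0.02 and 0.64.

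The comparison of 3 BML-260 with 3 vehicle libraries asked whether a month of compound changed the level of clock transcripts. The threshold was a 1.3-fold difference in either direction together with an unadjusted p below 0.05 in edgeR's quasi-likelihood test, and 1 of the 10 members reached it, against 5.75% of all tested genes (931 of 16188). By the p alone it was also 1 member, against 5.97% of tested genes (966). Tef was higher with BML-260 by 0.38 ± 0.17 (log2 fold change ± SE) with an unadjusted p of 0.0497, and its adjusted p was 0.788 (Benjamini-Hochberg over 16188 genes). It was called higher like 0.896% of tested genes, and 0 members were called lower, against 4.86%. No tested gene had an adjusted p under 0.05 with edgeR, where 966 had an unadjusted p under 0.05. DESeq2 gave 95 genes with an adjusted p under 0.05, and limma voom with sample quality weights and the robust edgeR test gave 1 each, with 0 members among them. The Tef call was lost in each fit that left out 1 library other than vehicle replicate 1, and its log2 fold change was 0.29 ± 0.15 without vehicle replicate 3.

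The other 9 members did not pass. In the PER-DBP arm, Dbp differed by 0.64 ± 0.66 (log2 fold change of BML-260 over vehicle ± SE) with an adjusted p of 0.818 in edgeR's quasi-likelihood test. Without vehicle replicate 3 its log2 fold change was 0.14 ± 0.26, and without vehicle replicate 2 it was 1.28. Per3 differed by 0.42 ± 0.27 with all libraries and by 0.15 ± 0.16 without vehicle replicate 3. Cry2 was at -0.47 ± 0.32 and Per1 at -0.26 ± 0.31, and both took the opposite sign without vehicle replicate 3 (0.02 ± 0.17 and 0.08 ± 0.24). Nr1d1 was at -0.04 ± 0.32 with all libraries and at -0.28 ± 0.24 without vehicle replicate 3.

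Per2 was at 0.23 ± 0.17 and Nr1d2 at 0.23 ± 0.19 on the log2 scale, and without vehicle replicate 3 they were at 0.28 ± 0.17 and 0.09 ± 0.15. In the CLOCK arm, Clock was at -0.34 ± 0.19, with an adjusted p of 0.788 in edgeR's quasi-likelihood test, and at -0.15 ± 0.14 without vehicle replicate 3. Cry1 was at 0.23 ± 0.17 with all libraries and at 0.20 ± 0.17 without vehicle replicate 3. With vehicle replicate 1 left out instead, Cry2 (-0.71), Clock (-0.50) and Tef (0.51) were at the threshold, as were 13.3% of all genes tested in that fit. No member had an adjusted p under 0.05 in any of the 17 alternative fits.

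**Figure D5:**
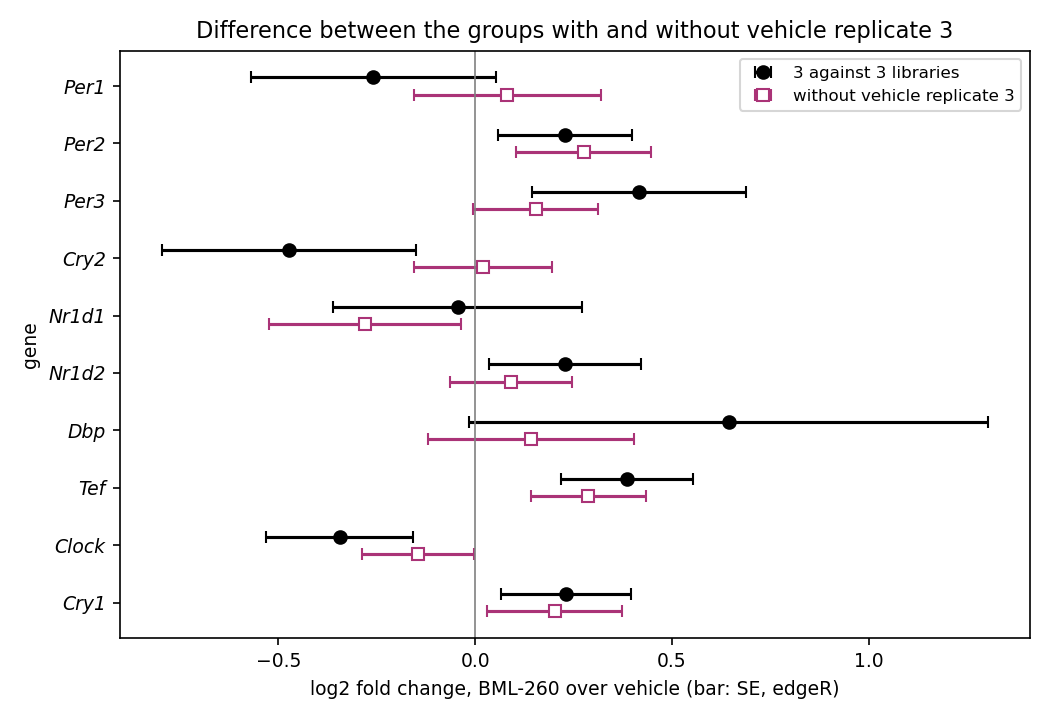
Log2 fold change of BML-260 over vehicle for each member (bars are SE, edgeR) with all 6 libraries (black circles) and without vehicle replicate 3 (open squares). Dbp moves from 0.64 to 0.14 and Cry2 from -0.47 to 0.02 when that library is left out, while Cry1 (0.23 and 0.20) and Per2 (0.23 and 0.28) stay near their values.

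Over the 8 members of the PER-DBP arm the median log2 fold change was 0.23, beside -0.0039 over all tested genes, with 5 members above 0 and 3 below. Without vehicle replicate 3 this median was 0.12. Clock and Cry1, which make up the CLOCK arm, had opposite signs. Of all tested genes 49.5% had a log2 fold change above 0, and of the 10 members 6 did.

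None of the 9 other loop genes was at the threshold, in the fit with all libraries or in that without vehicle replicate 3. Arntl was at -0.72 ± 0.36 (log2 fold change ± SE), and at -0.20 ± 0.23 without vehicle replicate 3. Npas2, a relative of Clock that can replace it, was at 4.89 to 41.1 normalized counts, with its highest value in vehicle replicate 3, and its log2 fold change was -0.80 ± 0.74. Nfil3, the D-box repressor, had 1080, 761 and 2512 normalized counts with vehicle and 807, 1042 and 759 with BML-260, so that vehicle replicate 3 again set the vehicle mean.

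Hlf, a D-box activator like Dbp and Tef, had 655, 544 and 374 normalized counts with vehicle and 724, 861 and 633 with BML-260. Its log2 fold change was 0.49 ± 0.22, and it was 0.29 ± 0.17 without vehicle replicate 3. Bhlhe41, a repressor at E-boxes, was at 658 in vehicle replicate 3 and between 1605 and 2170 elsewhere, and its relative Bhlhe40 was between 2995 and 4538 in all 6. Rora, an activator at RORE sites, was between 9714 and 13292 in all 6. Rorb, its relative, at 29.5 to 63.5 normalized counts, was the only one of the 9 whose groups did not overlap. Its adjusted p was 0.788 in edgeR's quasi-likelihood test. Groups did not overlap for 12.1% of all tested genes, so 1 of 9 is near the background.

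Genes around the loop were counted in the same way. Over all tested genes 5.75% were at the threshold, and groups did not overlap for 12.1%. Of the 8 clock protein modifiers (kinases, ubiquitin ligases and partners such as Csnk1d, Btrc and Usp2), 0 were at the threshold, with a median log2 fold change of 0.019. Groups did not overlap for 2 of these 8. Of the 12 rhythmic output genes, 1 was lower, Myod1 (log2 fold change -0.47 ± 0.18), the muscle determination factor, and the median was 0.09. Groups did not overlap for 4 of these 12. Ucp3, a mitochondrial carrier on that list that was named after its values were seen, was lowest, like Dbp, in vehicle replicate 3 (1101 normalized counts against 4370 to 8519). Neither list had a gene with an adjusted p under 0.05.

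Since Per1 is itself induced by hormones and other stimuli, lists of genes that respond to them were read beside it. Of 6 glucocorticoid-responsive genes, 0 were at the threshold (5.75% of all tested genes were), and vehicle replicate 3 was the highest library for 5 of them. Over all tested genes it was the highest for 32.3%. For the remaining gene of the list, Sgk1, it was the lowest (9503 normalized counts against 12156 to 16569 elsewhere). Fkbp5, a gene of that list named after its values were seen, had 5966 normalized counts in vehicle replicate 3 and 1266 to 2296 elsewhere. Of 6 temperature-responsive genes, vehicle replicate 3 was the highest for 4 and the lowest for 1, Hsph1. Rbm3, a cold-inducible RNA-binding protein, was the only one of these 6 at the threshold (-0.68 ± 0.28, lower with BML-260). Without vehicle replicate 3 it was at -0.26 ± 0.15 and no longer at the threshold. Of 6 immediate early genes, vehicle replicate 3 was the highest for all 6, and Fos, Fosb and Junb were at the threshold, lower with BML-260. Fos had 327, 499 and 3555 normalized counts with vehicle and 194, 178 and 594 with BML-260. Without vehicle replicate 3 the log2 fold change of Fos went from -2.18 to -0.37 and that of Fosb from -2.19 to -0.14, and neither was at the threshold. Junb went from -2.16 to -0.85 and was still at it. The part of these genes in the high Per1 of vehicle replicate 3 was not tested.

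Markers of other cells moved with the groups as well as with vehicle replicate 3. At the threshold and lower with BML-260 were 5 of 6 macrophage markers (Adgre1, Csf1r, Lyz2, Mrc1 and C1qa) and 4 of 4 neutrophil markers (S100a8, S100a9, Csf3r and Retnlg). So were 2 of 4 erythroid markers (Hba-a1 and Alas2) and 1 of 5 fibroblast markers (Col1a1). Over all tested genes 4.86% were at the threshold and lower, and 0.896% were at it and higher. The remaining macrophage marker, Cd68, had a log2 fold change of 0.0018, and of 0.39 without vehicle replicate 3. None of the 4 endothelial, 4 adipocyte, 3 Schwann cell and 8 muscle fiber markers was at the threshold. Of 7 denervation and regeneration genes, 5 were lower (Myog, Chrna1, Ncam1, Runx1 and Myh3). Without vehicle replicate 3, 5 macrophage and 4 neutrophil markers and 5 denervation and regeneration genes were at the threshold and lower. In the same fit the log2 fold change of Dbp was 0.14, and 3.98% of tested genes were at the threshold in either direction. In that fit Alas2 (-0.32) and Col1a1 (-0.31) were no longer at the threshold, Hba-a1 was at it at -0.45, and the Schwann cell marker Mbp (0.44) was at it and higher with BML-260. Their part in the clock values was not tested.

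Genes with a pattern like that of Dbp or Clock were sought among 12896 tested genes with a mean of at least 1 CPM, by Pearson's r of log2 CPM over the 6 libraries. The highest with Dbp were Tom1l2, Jmjd8, Asb16, Pou4f1 and Heatr5b (r between 0.996 and 0.999, Spearman's rho between 0.886 and 1.00), and the highest with Clock were Ppil4, Selenbp2, Spata6, Zeb2 and Rttn (r between 0.995 and 0.999, rho between 0.943 and 1.00). These are the top values of many genes over 6 libraries, of which vehicle replicate 3 lies far from the rest, and all values of 1 library share its depth and cell makeup. Tom1l2, the first of them, had 3836, 4045 and 2815 normalized counts with vehicle and 3758, 4101 and 4190 with BML-260, a shallower drop than that of Dbp. Among members, Per3 was most like Dbp (r = 0.991, rho = 1.00), while Cry2 was far from it over the 6 libraries (r = -0.767, rho = 0.0857) and close to it over the 5 without vehicle replicate 3 (r = 0.992).

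Some members share bases with other genes in the GENCODE M21 annotation (GRCm38), and the handling of strand in the counting is not given in the sources used here. Nr1d1 (chr11:98767932-98775377) shares 263 exonic bases with Thra, a thyroid hormone receptor gene on the opposite strand. Thra had 2213, 2011 and 1787 normalized counts with vehicle and 2307, 2310 and 2588 with BML-260, an order unlike that of Nr1d1, and was not at the threshold. Dbp (chr7:45705100-45710203) shares 539 exonic bases with Sphk2, a sphingosine kinase gene on the opposite strand, which had 554 to 672 normalized counts in all 6 libraries. Sphk2 had 554 of them in vehicle replicate 3, where Dbp was at 235. Tef shares 193 exonic bases with the antisense gene Gm17597, which had at most 8.55 normalized counts, and Cry2 shares 295 with D930015M05Rik, for which 0 reads were counted in every library. Per3 lies over Camta1 on the same strand and Clock over Ube2n-ps1 and Gm43658 without shared exonic bases. Camta1 had 685, 1150 and 1878 normalized counts with vehicle and 722 to 868 with BML-260.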

How the data were processed

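RNA-seq libraries were made by the authors from total RNA (TruSeq Stranded Total RNA Gold). Per the labels, reads were processed with Trimmomatic 0.38, StringTie 2.1.3b, HISAT2 2.1.0 and Bowtie2 2.3.4.1 on mm10, and the authors deposited raw counts per gene, without normalization, and TPM per library. Strand and multi-mapped reads in the counting are not given in the sources used here.

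Genes kept by filterByExpr (16188) were scaled by TMM and tested with edgeR 4.0.16 (quasi-likelihood, Benjamini-Hochberg) in R 4.3.3, as BML-260 over vehicle with no covariate. SE is the size of the log2 fold change over the square root of F. Alternatives used DESeq2 1.42.0, apeglm 1.24.0, limma 3.58.1 (voom, and a trend fit of TPM after adding 1 or 0.1 and taking log2). The index used log2 CPM with a prior count of 0.5. P-values cover the spread between 3 libraries per group. Tests were run on simulated counts without an outlying library like vehicle replicate 3, so that check does not cover its effect.

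Named genes were the members, other loop genes, genes of the other lists at the threshold, genes overlapping a member, and the 5 nearest to Dbp and to Clock by Pearson's r. Fkbp5, Ucp3, Mbp, Sgk1, Hsph1, Cd68, Pvalb, Tnnt3, Fabp4, Adipoq, Plin1 and Cidec were added after their values were seen. Csnk1d, Btrc and Usp2 were added as examples of their list. Some genes of these lists are not reported here, and the counts were made without them. The members and lists were chosen with earlier results of these data known.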

Additional observations from a re-analysis of the deposited data

How the results depend on the processing

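The number of all genes at the threshold (931) was 1416 with no filter on low counts, 446 on log2(TPM + 1), 113 with folds shrunken by apeglm, and 503 to 2223 when 1 library was left out (503 without BML-260 replicate 2, 2223 without vehicle replicate 1). The number of members at the threshold (1, Tef) was 0 with upper quartile normalization, with no filter, with the replicate block, with apeglm, with limma voom, with the robust edgeR test and on both TPM scales, and 0 to 3 when 1 library was left out. It stayed 1 with RLE normalization, with at least 10 counts in every library and with the DESeq2 Wald test. Tef was at 0.37 with upper quartile normalization, which put it under the fold of 1.3. Leaving out 1 library moved Per1 from -0.49 to 0.082, Cry2 from -0.71 to 0.020 and Nr1d1 from -0.28 to 0.34 (log2 fold change), with the sign changes of Per1 and Cry2 without vehicle replicate 3 (0.082 and 0.020) and that of Nr1d1 without vehicle replicate 2 (0.34) or BML-260 replicate 1 (0.13). The cause was not tested. The other 7 members kept their sign in all 17 alternatives.

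The difference in the clock index (0.27) was 0.63 without Cry1 and Cry2 in the index, 0.55 with Arntl and Npas2 added to the CLOCK arm, and 0.051 to 0.44 when 1 library was left out. The median of the PER-DBP arm was 0.00088 with apeglm, which shrinks folds towards 0, and 0.07 on both TPM scales.

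Replicate numbers were shared between groups, but correlations of deviations in same-numbered libraries were 0.11, 0.05 and 0.09 over all tested genes, so the numbers were not taken as pairs. Over all tested genes each library correlated best with its own number. Over the 10 members the same-numbered correlations were -0.14, 0.06 and -0.24. Replicate 1 of vehicle and BML-260, the pair of the second ordering, were also the closest 2 libraries over all tested genes. Their chi-square per degree of freedom was 21.7, against 33.9 to 473 for other pairs. The part of that likeness in the ordering was not tested. With the replicate block 6.53% of tested genes were at the threshold, and Tef was at 0.40 with an unadjusted p of 0.0569 in edgeR's quasi-likelihood test. With 3 libraries per group and no record of the hour of collection, daily phase and treatment cannot be told apart.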
